A study of Mus musculus with 18 samples.

Results

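Mouse skin treated with detergent B was compared with skin treated with PBS (phosphate-buffered saline, the control) by RNA sequencing. The comparison took the libraries whose treatment label is Detergent B, 6 in number, and those whose treatment label is PBS, also 6, of 18 libraries in all, and covered every gene in the count files. The remaining 6 libraries, from skin treated with Detergent A, entered the fit for the estimate of the spread. All 3 groups are skin of C57BL/6 mice aged 8-12 weeks that differ in the labels by treatment alone, and no genotype, transgene or other agent is labelled. What the detergents contain, their dose, the number of applications, the body site and whether libraries stand for separate animals are not given in the labels, so p-values measure the spread between these libraries. The labelled tissue was checked against defining markers: the basal keratinocyte keratins Krt5 and Krt14 were at 4445 CPM (counts scaled to a common library size) or more and at 3756 CPM or more in all 12 libraries, and collagen Col1a1 at 841 CPM or more.

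The outer skin barrier is built by keratinocytes that leave the basal layer, switch keratins, fill with filaggrin and lipid-filled lamellar granules, and die as flat cells inside a cross-linked protein shell, the cornified envelope. Ceramides, cholesterol and fatty acids between those cells hold back water, proteases of the kallikrein family cut the junctions that let old cells shed, and inhibitors restrain proteases of the layer, stefins those of the cysteine class. Detergents are known to remove lipids and proteins from this layer, and keratinocytes are known to release interleukin-1 and interleukin-36 family cytokines when the layer is disturbed.

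Of 16836 genes that passed the filter on low counts, 332 (1.97%) were higher and 182 (1.08%) were lower with detergent B than with PBS (adjusted p below 0.05, quasi-likelihood test in edgeR), together 514 genes (3.05%). Another view of the same fit is that 3931 genes (23.3%) had an unadjusted p under 0.05. Of the called genes, 90 rose at least 2-fold and 22 fell at least 2-fold, and the median log2 fold change was 0.68 among the genes that rose, -0.51 among those that fell and -0.0082 over all genes tested. The 6 detergent B libraries lay wholly above the 6 PBS libraries for 290 genes (1.72%) and wholly below them for 189 (1.12%). Of the 514 called genes, 257 had groups that did not overlap in this way. The smallest adjusted p was 0.00621, shared by Stfa3 and Il1f6 and 1 predicted gene.

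The number of genes called depended on single libraries. Without PBS replicate 1, 2, 3, 4, 5 or 6 the fit called 150, 30, 28, 262, 82 or 1888 genes, and without detergent B replicate 1, 2, 3, 4, 5 or 6 it called 891, 87, 1047, 176, 99 or 153. All 514 genes kept their direction in each of these fits. The fits reuse most of the libraries in which the genes were chosen, so a kept direction is no separate support. In each of the 12 fits 27 genes passed, among them Stfa3, Il1f6, Il1f8, Calm4, Calml3, Casp14, Ivl, Klk8, Klk9, Degs2, Serpinb12, Glrx, Ggh, Lpo, Tmem40, Twf1, Hmox2 and Zfp772, which rose, and Stra6, Cryaa and Zfp219, which fell. Detergent A, which shares these PBS libraries, gave 32 calls (0.19%) in the same fit, and a direct comparison of detergent B with detergent A called 0 genes (0%) by edgeR, DESeq2 and limma's voom, with 550 at an unadjusted p under 0.05 by edgeR. Nothing below was therefore shown to be particular to detergent B. For the genes with the smallest p the direct differences between the detergents were 0.88 ± 0.31 for Stfa3 and 0.81 ± 0.22 for Il1f6 on the log2 scale (SE; adjusted p = 0.989 for both by edgeR), both higher with detergent B.

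**Figure D1:**
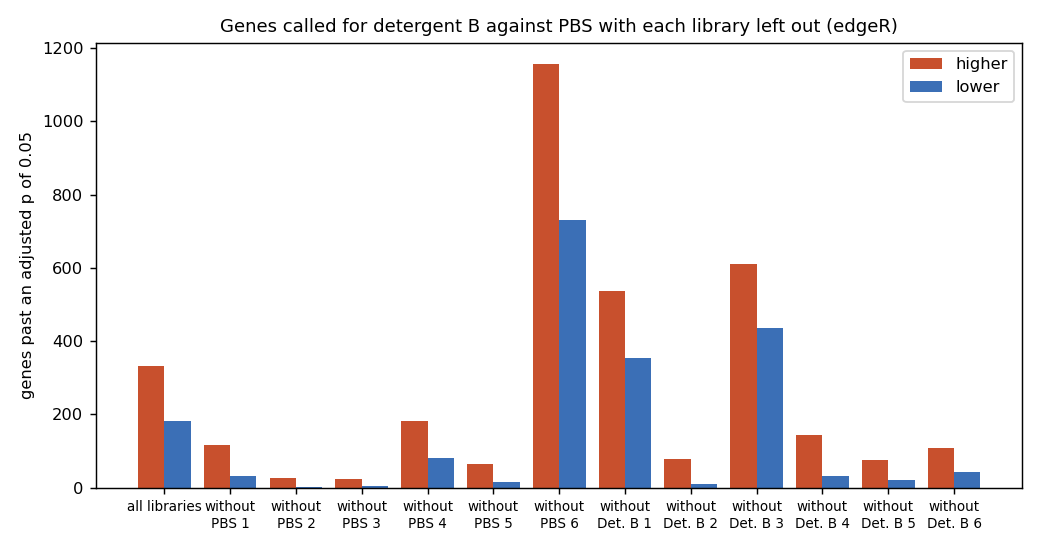
Number of genes higher (red bars) and lower (blue bars) with detergent B than with PBS at an adjusted p under 0.05 by edgeR (y axis), with all libraries and with each PBS or detergent B library left out in turn (x axis). The bars reach 1157 higher and 731 lower without PBS replicate 6, and fall to 24 higher and 4 lower without PBS replicate 3.

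The level of hair follicle genes differed widely among libraries of the same group. The summed level of 13 inner root sheath genes, which build the sheath around a growing hair and include Krt25, Krt71 and Tchh, was 9180, 7088, 6635, 4984, 6447 and 486.8 CPM in PBS replicates 1 to 6, and 2879, 315.1, 5111, 381, 227 and 509.6 CPM in detergent B replicates 1 to 6. PBS replicate 6 therefore lay among the low detergent B libraries, and detergent B replicates 1 and 3 lay nearer the other PBS libraries. None of the 13 passed the test by edgeR (5 had an unadjusted p under 0.05, and DESeq2 called 2 and voom 12), with a median log2 fold change of -2.05 and all 13 below 0. Of 33 hair shaft genes tested, Krtap1-3 and Krtap1-4 fell by edgeR (DESeq2 called 6 lower, voom 31), with a median of -3.20, and a further 37 did not pass the filter on low counts. With the hair shaft score of each library as a covariate, edgeR called 0 genes, and 1511 of all 16836 genes had an unadjusted p under 0.05. The 1511 held 419 of the 514, and all 514 kept their sign. As the 514 were chosen in these same libraries, neither is separate support. Their changes were smaller, with a median size of 0.37 on the log2 scale against 0.59 without the covariate. In bulk skin, fewer cells of a type and less RNA per cell cannot be told apart.

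Genes for proteins of the cornified envelope rose. Of 28 envelope genes tested, 9 rose, 0 fell, and 27 had a positive log2 fold change, with a median of 0.65 against -0.0082 over all genes tested. The negative one was Crnn, at -1.89 ± 1.08 (SE), which did not pass. Calm4, an epidermal calcium-binding protein of the calmodulin family (chromosome 13, 3837757 to 3838673, GRCm38), was at 1190.1 to 2375 CPM (median 1666) in PBS and 3417 to 6137 CPM (median 4434) with detergent B. Every detergent B library lay above every PBS library, and Calm4 rose 2.66-fold (log2 fold change 1.41 ± 0.22 SE, adjusted p = 0.00978 by edgeR, n = 6 per group). Ivl, which encodes involucrin, an early scaffold of the envelope (chromosome 3, 92570902 to 92573735), was at 182 to 288 CPM (median 223) in PBS and 349.9 to 559 CPM (median 501) with detergent B, again with no overlap. Its log2 fold change was 1.07 ± 0.18 (SE; adjusted p = 0.0106 by edgeR). Hrnr, which encodes hornerin, a relative of filaggrin, rose 2.59-fold, from 627 ± 222 to 1623 ± 402 CPM (mean ± SD), and the repetin gene Rptn went up 4.26-fold, from 233 ± 129 to 993 ± 464 CPM. The filaggrin gene Flg also rose and ran from 412 to 1117 CPM in PBS and from 1411 to 2363 CPM with detergent B. Calml3, Cdsn, Lypd5 and Dmkn also rose, by log2 fold changes of 0.71, 0.75, 0.70 and 0.69. Lor, which encodes loricrin, the most abundant protein of the envelope, did not pass, at 708 ± 265 to 949.6 ± 282 CPM (adjusted p = 0.409 by edgeR), nor did Tgm1, the transglutaminase that cross-links the envelope (148 ± 18.5 to 207 ± 39.6 CPM, adjusted p = 0.102 by edgeR). Detergent B replicate 3, the library with the most inner root sheath RNA of its group, was the lowest of its group for Calm4, Ivl, Flg, Lypd5 and Dmkn, while replicate 1 was the lowest for Hrnr, replicate 2 for Calml3 and replicate 4 for Rptn and Cdsn. With 1 library left out, between 3 of the 28 (without PBS replicate 2 or 3) and 18 (without detergent B replicate 3) were called higher.

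**Figure D2:**
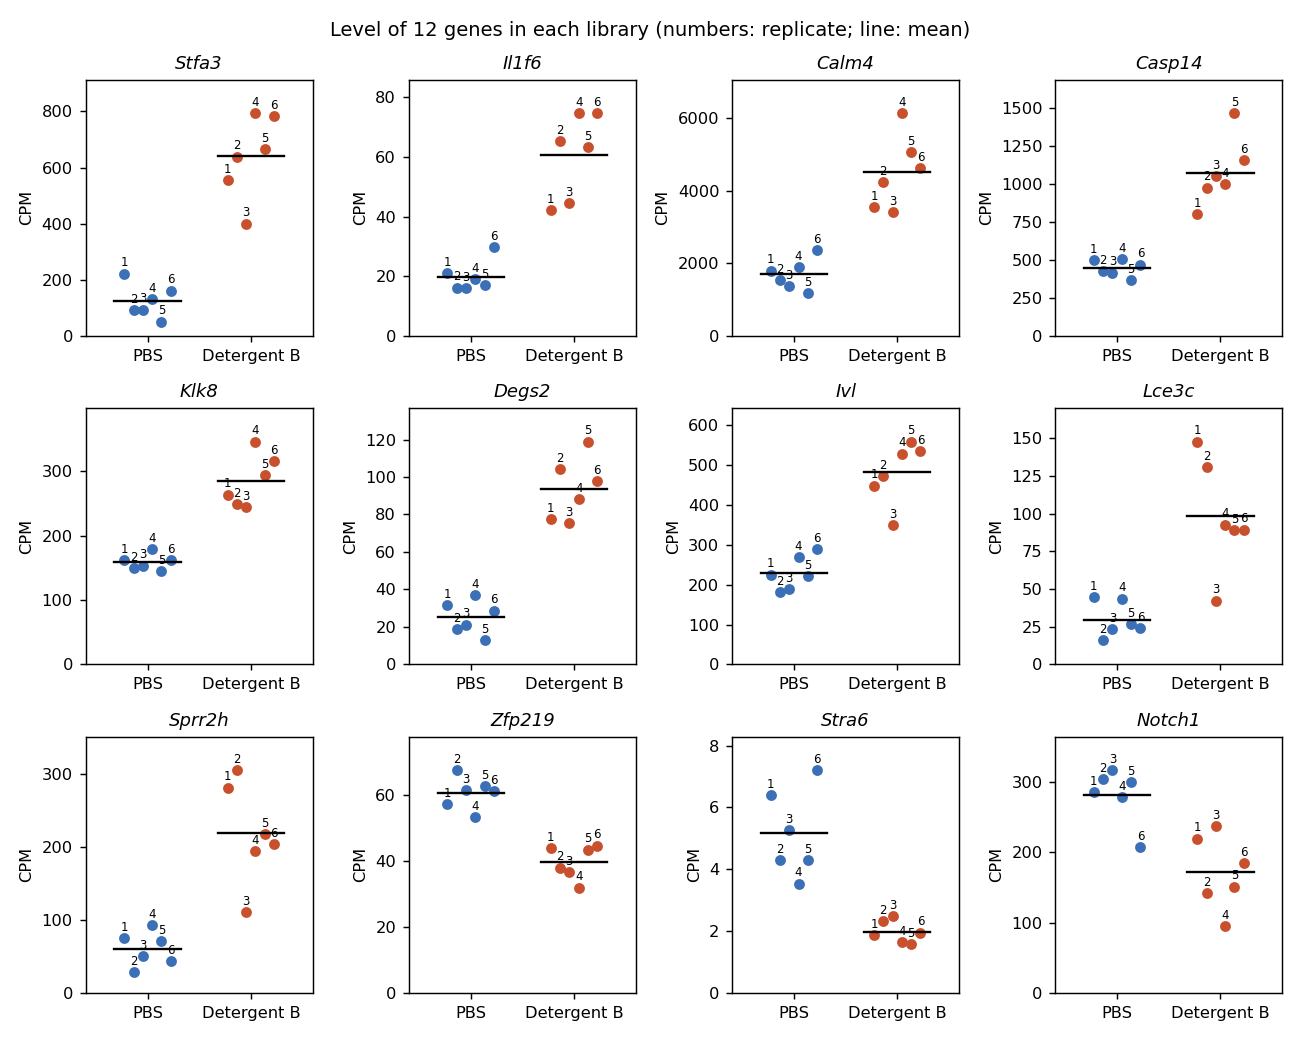
Level of 12 genes in CPM on a linear axis from 0 (y axis) in the 6 PBS libraries (blue) and the 6 detergent B libraries (red), with replicate numbers beside the points and the group mean as a line. The groups do not overlap for Stfa3, Il1f6, Calm4, Casp14, Klk8, Degs2, Ivl, Sprr2h, Zfp219 and Stra6. For Lce3c detergent B replicate 3 lies below PBS replicate 1, and for Notch1 detergent B replicates 1 and 3 lie above PBS replicate 6.

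Many envelope genes lie side by side in the epidermal differentiation complex (chromosome 3, 90511034 to 93564643, GRCm38). Of 72 genes tested in this stretch, 13 rose and 0 fell (18.1% against 3.05% of all genes), and 63 had a positive log2 fold change. The small proline-rich genes, whose proteins bridge other envelope proteins, had the larger changes: 3 of 14 rose, all 14 were positive, and the median log2 fold change was 2.27. The list left out Sprr2g, which lies in the same stretch and did not pass (log2 fold change 1.90 ± 0.55 SE). Sprr2h was at 28.5 to 93.4 CPM (median 60.9) in PBS and 111 to 305 CPM (median 211) with detergent B. Sprr2d rose 6.06-fold, from 9.37 ± 3.54 to 57.1 ± 34.2 CPM, and detergent B replicate 2, the highest at 122 CPM, stood well above replicate 3, the lowest at 21.9 CPM. Sprr2e rose 5.50-fold from a PBS mean of 3.17 CPM. Sprr2a1 had the highest log2 fold change of the family, 3.52 ± 1.34, and did not pass (adjusted p = 0.13 by edgeR). Of 21 late cornified envelope genes, which act late in the same process, Lce3c, Lce3e, Lce1g, Lce1f and Lce6a rose and 20 were positive, with a median of 0.82. Lce3c was at 16.1 to 44.6 CPM (median 25.2) in PBS and 42.4 to 148 CPM (median 91.0) with detergent B, and detergent B replicate 3 alone fell inside the PBS range. Leaving out 1 library gave 0 called Sprr genes without PBS replicate 2 or 3 and 9 without detergent B replicate 3, and 0 to 13 called Lce genes. The Sprr2 and Lce genes are near copies of each other, and reads that match several of them may be shared out among them, so single members are uncertain.

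**Figure D3:**
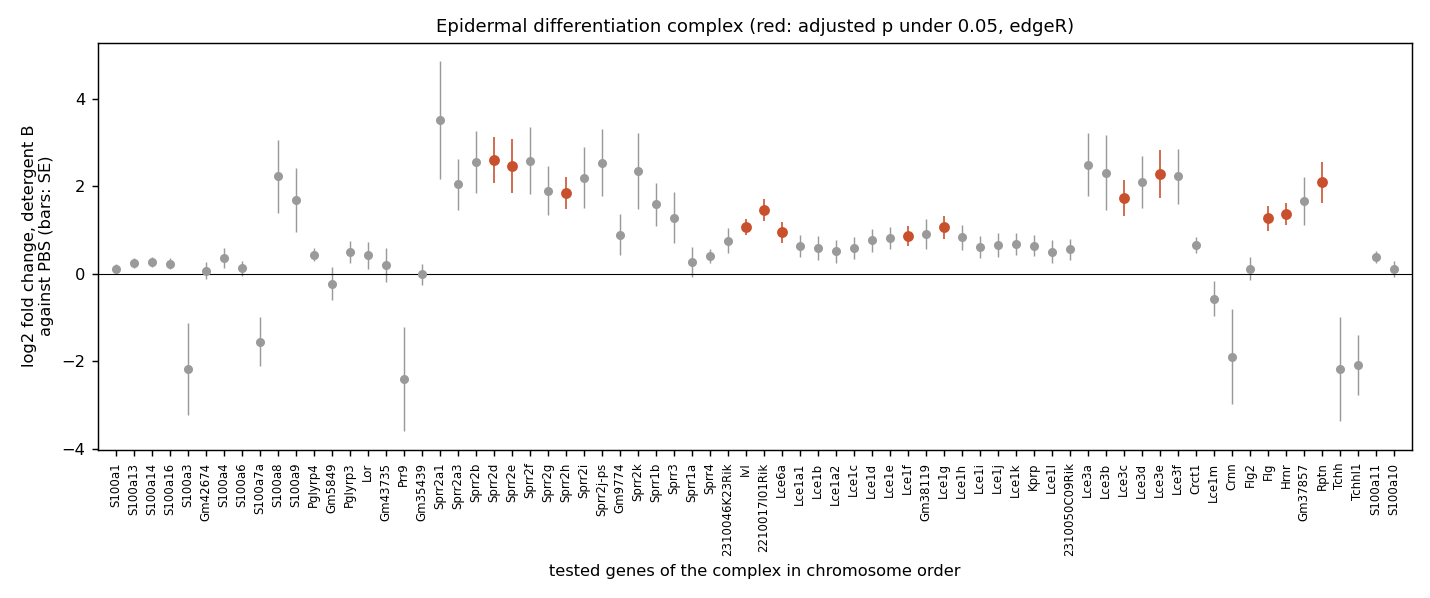
Log2 fold change of detergent B against PBS by edgeR (y axis; bars are 1 SE) for the 72 tested genes of the epidermal differentiation complex in chromosome order (x axis); red points passed an adjusted p of 0.05. The Sprr2 genes and Lce3 genes mostly stand higher than the Lce1 genes, which run from 0.51 for Lce1l to 1.06 for Lce1g apart from Lce1m at -0.57. The follicle genes Tchh and Tchhl1 lie at -2.17 ± 1.19 and -2.08 ± 0.68, and Prr9, S100a3, Crnn and S100a7a at -2.40, -2.16, -1.89 and -1.55.

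The bases before the start sites of Ivl, Sprr2d and Sprr2h are shown because these genes rose together and a simple motif recurs in them. Serpinb12 and Il1f8 are further called genes that hold the motif, so the windows shown do not represent the called genes at large. Sequences are from RefSeq on GRCm38.p6, each the 250 bases upstream of the start, written 5′ to 3′ on the gene's strand. Capitals mark TGANTCA, a loose form of the AP-1 motif with any base at N, called the AP-1 letters below, and TATAAA on the gene's strand. The pattern TGANTCA reads the same on both strands. In Ivl, Sprr2d, Sprr2h and Il1f8 the N is C or G, in Serpinb12 it is T, and in Flg it is A. The shares of promoters given below count motifs on both strands. The windows are chr3:92573736-92573985, minus strand for Ivl; chr3:92338890-92339139, plus strand for Sprr2d; chr3:92385435-92385684, plus strand for Sprr2h; chr1:106934199-106934448, plus strand for Serpinb12, a serine protease inhibitor described below; and chr2:24152922-24153171, plus strand for Il1f8, an interleukin-36 gene described below.
Ivl: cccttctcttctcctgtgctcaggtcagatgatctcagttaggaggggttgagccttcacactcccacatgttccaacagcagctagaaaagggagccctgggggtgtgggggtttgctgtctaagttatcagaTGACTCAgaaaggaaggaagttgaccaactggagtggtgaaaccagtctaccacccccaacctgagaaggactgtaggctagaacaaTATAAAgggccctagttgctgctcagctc
Sprr2d: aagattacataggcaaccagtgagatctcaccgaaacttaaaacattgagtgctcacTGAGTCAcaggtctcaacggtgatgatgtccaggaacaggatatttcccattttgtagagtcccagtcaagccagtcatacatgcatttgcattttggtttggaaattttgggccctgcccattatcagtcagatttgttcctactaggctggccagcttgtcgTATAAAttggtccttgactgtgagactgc
Sprr2h: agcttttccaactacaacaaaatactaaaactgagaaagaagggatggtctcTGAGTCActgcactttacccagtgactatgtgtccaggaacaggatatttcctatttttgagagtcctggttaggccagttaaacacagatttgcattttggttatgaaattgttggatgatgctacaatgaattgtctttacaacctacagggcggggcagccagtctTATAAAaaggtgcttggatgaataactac
Serpinb12: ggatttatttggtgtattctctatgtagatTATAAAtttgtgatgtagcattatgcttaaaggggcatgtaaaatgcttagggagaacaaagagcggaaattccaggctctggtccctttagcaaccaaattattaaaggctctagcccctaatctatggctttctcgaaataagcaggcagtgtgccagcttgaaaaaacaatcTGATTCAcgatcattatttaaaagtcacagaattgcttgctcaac
Il1f8: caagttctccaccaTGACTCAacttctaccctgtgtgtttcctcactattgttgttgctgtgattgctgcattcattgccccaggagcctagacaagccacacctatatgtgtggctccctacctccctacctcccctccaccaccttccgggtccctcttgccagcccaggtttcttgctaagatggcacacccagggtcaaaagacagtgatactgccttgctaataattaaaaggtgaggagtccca
In Ivl, Sprr2d and Sprr2h the TATAAA begins 29 bases before the start, and the AP-1 motif begins 116, 193 and 198 bases before it. Serpinb12 differs, with the AP-1 letters at -45 and TATAAA at -220, and Il1f8 has the AP-1 letters at -236 and no marked TATAAA. The windows of Calm4, Hrnr, Il1f5, Il1f9, Casp14, Klk8, Klk9 and Degs2, which also rose, held no AP-1 letters and are not shown. Those of Sprr2e and Flg held them and are not shown either. The AP-1 letters occurred in 9 of 13 Sprr promoters (69.2%), 10 of 21 envelope promoters (47.6%) and 0 of 20 Lce promoters. They occurred in 3 of 10 promoters of interleukin-1 and interleukin-36 family ligands (30%) and 2 of 14 of the kallikrein list (14.3%). Among promoters of genes called higher they occurred in 36 of 261 (13.8%), among those called lower in 3 of 143 (2.10%), among all tested genes with an entry in 608 of 12159 (5%), and in 6.75% of all 32851 promoters of the table. The C/EBP motif TTGCNNAA occurred in 13% of promoters called higher, 6.99% called lower and 7.82% of those tested, and in 9.56% of the whole table. TATAAA occurred in 11.5%, 7.69% and 7.51%, and in 12.4% of the whole table, and a grainyhead motif, AACNNGTT, in 3.45%, 1.40% and 3.08%, and in 3.64% of the whole table. AP-1 letters were not alone in differing between lists. C/EBP letters occurred in 9 of 21 envelope promoters (42.9%) and 1 of 13 Sprr promoters (7.69%), and TATAAA in 9 of 21 (42.9%) and 10 of 13 (76.9%). An E-box, CANNTG, occurred in 62.1% of promoters called higher, 51.05% called lower and 58.4% of those tested. An ETS motif, ACCGGAAGT, occurred in 0%, 0.70% and 1.43%. The match is to letters only, and whether any factor binds there was not measured.

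Enzymes that process filaggrin into the free amino acids that hold water rose as well: Casp14, Blmh, Asprv1 and Klk5 (also counted among the kallikreins below), 4 of 13 tested, and 0 fell. Casp14, a caspase of terminal differentiation, was at 367 to 505 CPM (median 450.3) in PBS and 806 to 1469 CPM (median 1026) with detergent B. It rose 2.40-fold (log2 fold change 1.26 ± 0.20 SE, adjusted p = 0.00978 by edgeR), with no overlap. Asprv1, an aspartic protease that cuts profilaggrin, rose 2.11-fold, from 1767 ± 427 to 3723 ± 550.1 CPM, and Blmh, which encodes bleomycin hydrolase, the enzyme that finishes the breakdown to amino acids, rose 2.14-fold, from 313 ± 62.8 to 669 ± 133 CPM. The median of the 13 was 0.29, and 8 were positive. Leaving out 1 library gave 1 (without PBS replicate 2 or 3) to 6 called members (without PBS replicate 6).

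Stefin A genes, which encode inhibitors of cysteine proteases, had the highest share of called members of the 69 gene lists examined. Of 9 tested, 6 rose (Stfa3, Csta1, BC100530, BC117090, Stfa2 and Stfa1), all 9 were positive, and the median log2 fold change was 2.37. Stfa3 (chromosome 16, 36450537 to 36455392, GRCm38, minus strand) was at 50.9 to 222 CPM (median 113) in PBS and 400.1 to 794 CPM (median 652) with detergent B. The lowest detergent B library, replicate 3, was above the highest PBS library, replicate 1, and the rise was 5.10-fold (log2 fold change 2.35 ± 0.33 SE, adjusted p = 0.00621 by edgeR). BC100530 was the more abundant, at 59.4 to 255 CPM (median 133) in PBS and 348 to 1041 CPM (median 898) with detergent B. Csta1 rose 2.32-fold, from 109 ± 29.3 to 252 ± 66.0 CPM. Stfa1 and Stfa2 rose 5.16-fold and 5.50-fold from PBS means of 24.1 and 7.44 CPM. Between 1 (without PBS replicate 2 or 3) and 7 of the 9 (without detergent B replicate 3 or detergent A replicate 2) were called with 1 library left out.

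The promoters of Stfa1, Stfa2 and Stfa3 are shown because the genes rose together and are close copies, which also makes their separate counts uncertain. The promoter of Csta1, which also rose and has an entry, was not aligned with them and is not shown. Each is the 250 bases upstream of the RefSeq start on GRCm38.p6, and capitals mark the longest run of letters that all 3 share, 15 bases long. The windows are chr16:36276898-36277147, plus strand for Stfa1, chr16:36408364-36408613, minus strand for Stfa2 and chr16:36455393-36455642, minus strand for Stfa3. The RefSeq starts of Stfa1 and Stfa2 lie 197 and 94 bases from the GENCODE starts, and those of Stfa3 coincide.
Stfa1: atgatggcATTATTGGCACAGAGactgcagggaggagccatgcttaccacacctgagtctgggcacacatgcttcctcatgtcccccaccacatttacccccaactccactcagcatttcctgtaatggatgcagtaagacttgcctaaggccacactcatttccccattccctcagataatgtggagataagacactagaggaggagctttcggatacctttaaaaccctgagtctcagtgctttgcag
Stfa2: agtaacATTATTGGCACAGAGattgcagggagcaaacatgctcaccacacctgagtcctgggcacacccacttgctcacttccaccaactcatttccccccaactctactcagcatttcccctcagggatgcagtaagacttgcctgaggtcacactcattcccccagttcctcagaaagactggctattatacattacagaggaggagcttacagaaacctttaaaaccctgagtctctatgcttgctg
Stfa3: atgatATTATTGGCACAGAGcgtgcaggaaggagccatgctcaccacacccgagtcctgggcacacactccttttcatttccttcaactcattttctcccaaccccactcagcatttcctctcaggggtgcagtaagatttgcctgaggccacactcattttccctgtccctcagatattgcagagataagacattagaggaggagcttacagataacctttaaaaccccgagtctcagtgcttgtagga
Aligned end to end, Stfa1 and Stfa3 shared 83.1% of columns, Stfa1 and Stfa2 80.6%, and Stfa2 and Stfa3 80.2%, against 40.7% for the unrelated pair Ivl and Stfa3. The AP-1 letters occurred in 0 of the 5 stefin promoters with an entry. Lce3c and Lce3e, which also rose together, shared 77.9% of columns in the same window.

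Among serine proteases of the upper epidermis, kallikreins gave many of the calls. Of 17 kallikreins and transmembrane serine proteases tested, 8 rose (Klk8, Klk9, Tmprss11a, Tmprss11d, Klk5, Klk11, Klk13 and Klk7) and all 17 were positive, with a median of 0.70. Klk8, a trypsin-like kallikrein, was at 145 to 179 CPM (median 158) in PBS and 244 to 346 CPM (median 279) with detergent B, and rose 1.80-fold (log2 fold change 0.85 ± 0.14 SE, adjusted p = 0.00978 by edgeR). Its PBS libraries varied by an SD of 12.3 CPM around 158, so this modest rise was clear of the spread. Klk9 rose 2.40-fold, from 117 ± 21.3 to 282 ± 53.5 CPM. Klk7 and Klk5, the chymotrypsin-like and trypsin-like enzymes that cut corneodesmosomes, rose 1.61-fold and 1.77-fold, and Klk7 was the most abundant, at 1048 ± 149.6 CPM (SD) in PBS. Tmprss11d rose 4.80-fold at a low level, from 1.27 ± 0.807 to 6.17 ± 2.19 CPM. In the kallikrein stretch of chromosome 7 (43690418 to 44229618), 6 of 11 genes rose and all 11 were positive. Leaving out 1 library gave 2 (without PBS replicate 2 or 3) to 12 called members (without PBS replicate 6).

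Of 17 clade B serpins tested, Serpinb12, Serpinb3a and Serpinb6d rose and 15 were positive. Serpinb12 was at 17.6 to 74.2 CPM (median 47.0) in PBS and 97.2 to 228 CPM (median 176) with detergent B, with no overlap, and rose 3.49-fold (adjusted p = 0.0114 by edgeR). Serpinb3a had a larger fold, 6.87-fold, at a level of 1.11 CPM in PBS and 7.83 CPM with detergent B, and its groups overlapped. Of 12 Kazal and WAP inhibitors, Spink7 rose 9.90-fold, from 3.63 ± 3.16 to 36.5 ± 14.6 CPM, and Wfdc12 rose 5.25-fold, from 4.29 ± 3.21 to 22.8 ± 8.83 CPM. Spink7 ranged over 0.602 to 8.74 CPM in PBS and 14.0 to 57.1 CPM with detergent B, so the fold rests on a low and uneven control level. Without PBS replicate 2, 3 or 5, 1 of the serpins was called, and without PBS replicate 6, 10.

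Lipid synthesis for the barrier rose at several enzymes. Of 22 ceramide genes, 9 rose, among them Degs2, Ugcg, Sptlc1, Cers3, Smpd1 and Abca12, 18 were positive, and the median was 0.50. Degs2, which makes phytoceramide, was at 13.1 to 36.9 CPM (median 25) in PBS and 75.5 to 119 CPM (median 93.0) with detergent B, and rose 3.73-fold (log2 fold change 1.90 ± 0.28 SE, adjusted p = 0.00845 by edgeR). The other 8 ceramide genes that rose did so by less than 2-fold. Sptlc1, a subunit of the first enzyme of the pathway, rose 1.48-fold, and Cers3, which makes the very long chain ceramides, rose 1.77-fold, from 101 ± 14.9 to 179 ± 23.0 CPM. Ugcg, which adds glucose to ceramide for transport, rose 1.53-fold with a narrow spread, from 106 ± 8.46 to 162 ± 10.5 CPM, and Abca12, which loads lipids into lamellar granules, rose 1.69-fold. Smpd1, which makes ceramide from sphingomyelin, rose 1.66-fold. Counts with 1 library left out ran from 1 (without PBS replicate 2 or 3) to 15 (without PBS replicate 6).

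Genes of the acylceramide and lipid envelope pathway followed with smaller changes. Abhd5, Sdr9c7, Ephx3, Pnpla1 and Elovl7 rose, 5 of 21, and 20 were positive with a median of 0.47. Pnpla1, which joins linoleic acid to ceramide, rose 1.57-fold, and Abhd5, its activator, rose 1.51-fold. Sdr9c7 and Ephx3, which act on the oxidised linoleate, rose 1.96-fold and 1.58-fold. All 5 lost their calls without PBS replicate 2, 3 or 5 or without detergent B replicate 2, 4, 5 or 6, and 13 were called without PBS replicate 6. Among 18 phospholipases and lipases, Lipn, a lipase of the granular layer, rose 2.06-fold, and Pla2g4d rose 8.07-fold from 1.01 CPM. Of 24 cholesterol synthesis genes, Ebp alone rose by edgeR (1.58-fold; 4.17%, near the 3.05% of all genes), while 22 were positive, 16 had an unadjusted p under 0.05, and DESeq2 called 3 and voom 15, all higher. Among 19 eicosanoid genes, 1 was called (5.26%): Ptger4, a prostaglandin E receptor, fell, from 23.8 ± 1.40 to 15.2 ± 2.75 CPM.

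Of the suprabasal keratin pair, 1 partner passed the test. Krt1 rose 2.78-fold (log2 fold change 1.47 ± 0.28 SE, adjusted p = 0.0159 by edgeR), at 2372 to 5986 CPM (median 4548) in PBS and 7760.1 to 15909.6 CPM (median 12935) with detergent B, without overlap. Krt10, its partner in the same filaments, was at 6801 ± 2252 to 12772 ± 3258 CPM, higher than the PBS mean in 6 of 6 libraries, and did not pass (adjusted p = 0.0652 by edgeR). Of 11 keratins of the epidermis between follicles, Krt1 alone was called by edgeR (9.09%; DESeq2 3, voom 6), and 8 were positive. Krt77 went the other way, from 3374 to 1575 CPM (log2 fold change -1.10 ± 0.45 SE), and did not pass. The basal keratins Krt5 and Krt14 were at 5220.1 ± 987 to 6406 ± 925 CPM and 4782 ± 1058 to 7028 ± 1747 CPM and did not pass. None of 4 stress keratins passed by edgeR (1 at an unadjusted p under 0.05; DESeq2 0, voom 2). Krt6a and Krt16, the pair known from wounds and psoriasis, ranged widely, with SDs of 565 and 525 CPM around PBS means of 850.4 and 774 CPM.

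Of 17 desmosome genes, Cdsn, Dsg1b and Dsc1, which act in the upper layers, rose by edgeR, by 1.68-fold, 1.78-fold and 1.72-fold, and 11 were positive. Cdsn encodes corneodesmosin, the glue that kallikreins cut. All 3 calls were lost without PBS replicate 1, 2, 3, 4 or 5, or without detergent B replicate 2, 5 or 6. Of 21 tight junction genes, 1 was called by edgeR (4.76%, near the 3.05% of all genes; DESeq2 2, voom 9): the claudin gene Cldn3 fell, from 6.12 ± 1.31 to 3.21 ± 0.456 CPM. Among 18 adherens junction genes and 20 hemidesmosome and basement membrane genes, 0 passed by edgeR (3 and 5 at an unadjusted p under 0.05; DESeq2 0 and 2, voom 4 and 8), and 17 of the latter 20 had a negative log2 fold change. Slc16a1, a lactate transporter, and Car13, a carbonic anhydrase, rose 1.48-fold and 1.49-fold among 18 transport genes.

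Cytokine genes of the interleukin-1 and interleukin-36 families, which keratinocytes make, rose at 6 of 11 ligands. These were Il1f6, Il1f8 and Il1f9 (interleukin-36 alpha, beta and gamma), Il1f5 (the interleukin-36 receptor antagonist), Il1a and Il18. Il1f6 (chromosome 2, 24215418 to 24225702) was at 16.2 to 29.7 CPM (median 18.1) in PBS and 42.3 to 74.6 CPM (median 64.3) with detergent B. Il1f8 was at 31.8 to 64.5 CPM (median 45.5) in PBS and 94.5 to 133 CPM (median 122) with detergent B, also with no overlap. Their log2 fold changes were 1.61 ± 0.23 and 1.33 ± 0.22 (SE), with adjusted p = 0.00621 and 0.00978 by edgeR. The antagonist Il1f5 was the most abundant of them and rose 2.08-fold, from 264 ± 81.8 to 551 ± 108 CPM, so agonists and antagonist moved the same way. Il1a, an alarmin stored in keratinocytes, rose 1.61-fold, from 23.3 ± 3.37 to 37.5 ± 8.04 CPM. The interleukin-1 receptor antagonist Il1rn was at 102 ± 16.7 to 139.8 ± 15 CPM and did not pass (adjusted p = 0.0873 by edgeR). None of 13 receptors passed by edgeR (4 at an unadjusted p under 0.05; DESeq2 0, voom 4), and the interleukin-36 receptor Il1rl2 was at 174 ± 13 to 214 ± 33.2 CPM. With 1 library left out, 2 (without PBS replicate 2, 3 or 5) to 7 ligands (without PBS replicate 6) were called.

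Other innate defence genes rose singly. Gsdma, a gasdermin of the upper epidermis, rose 1.61-fold, from 247 ± 32.3 to 397 ± 42.4 CPM, and Gsdmc rose 2.79-fold, 2 of 17 inflammasome and gasdermin genes. Of 12 antimicrobial genes, the defensins Defb6 and Defb1 rose 1.78-fold and 1.88-fold and Bpifc rose 1.41-fold, and all 12 were positive; without PBS replicate 2 or 3 none of them was called. Saa3, an acute phase gene, rose 6.34-fold but unevenly, at 1.57 to 8.66 CPM (median 4.57) in PBS and 4.52 to 57.2 CPM (median 23.5) with detergent B. It was the only 1 of 19 acute phase and complement genes called by edgeR (5.26%, near the 3.05% of all genes; DESeq2 2, voom 3). Chil1, a chitinase-like gene, rose 2.44-fold and was the only member of 21 type 2 immunity genes called by edgeR (4.76%; DESeq2 2, voom 5).

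Inflammatory programmes beyond these did not pass. By edgeR 0 of 24 chemokines, 0 of 20 NF-kB target genes, 0 of 12 type 17 genes, 0 of 26 interferon response genes and 0 of 13 S100 genes were called, with 2, 3, 1, 0 and 6 at an unadjusted p under 0.05. DESeq2 called 0, 2, 0, 0 and 0 of them, and voom 3, 4, 3, 0 and 4. Without passing, S100a8 and S100a9 had log2 fold changes of 2.23 ± 0.83 and 1.69 ± 0.73 (SE). S100a3 and S100a7a went the other way, at -2.16 ± 1.05 and -1.55 ± 0.56. Of the interferon list 23 of 26 had a negative log2 fold change, but PBS replicate 6 stood apart, with a summed level of 1182 CPM against 494.8 to 673.6 CPM in the other PBS libraries, and the detergent B median, 606.6 CPM, was above the PBS median, 545.1 CPM. Immediate early genes, which respond within minutes, gave 0 calls of 18 by edgeR (8 at an unadjusted p under 0.05; DESeq2 3, voom 9), with 17 of 18 negative. Fos, the best known of them, was at 23.7 to 117 CPM (median 48.1) in PBS and 7.95 to 40.5 CPM (median 17.2) with detergent B (log2 fold change -1.49 ± 0.43 SE, adjusted p = 0.0597 by edgeR).

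No immune cell marker passed either. Macrophage, dendritic cell, T and NK cell, mast cell, neutrophil and eosinophil and B cell lists gave 0 calls by edgeR among 20, 20, 20, 12, 11 and 2 tested genes, with 0, 0, 1, 1, 3 and 1 at an unadjusted p under 0.05. DESeq2 called 0, 0, 1, 0, 0 and 1, and voom 0, 1, 3, 1, 1 and 1. Summed neutrophil and eosinophil markers were 107.3 to 162.5 CPM in PBS, and 428.7 and 245 CPM in detergent B replicates 2 and 4 against 130.9 to 166.7 CPM in the other 4. The macrophage gene Adgre1, the Langerhans cell gene Cd207, the T cell gene Cd3e and the mast cell gene Cpa3 had log2 fold changes of 0.22 ± 0.30, -0.36 ± 0.28, -0.05 ± 0.23 and 0.19 ± 0.21 (SE).

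Among transcription factors of epidermal differentiation, 0 of 24 passed by edgeR (8 at an unadjusted p under 0.05; DESeq2 2, voom 9), and the median log2 fold change was 0.04. Klf4 was at 361 ± 46.4 to 455 ± 92.1 CPM, Grhl3 at 99.1 ± 16.4 to 132 ± 29.8 CPM, Ovol1 at 142 ± 16.2 to 146 ± 20.1 CPM, Zfp750 at 229.7 ± 15.6 to 251 ± 43.0 CPM and the basal regulator Trp63 at 371 ± 68.0 to 353 ± 51.9 CPM, with adjusted p between 0.188 and 0.89 by edgeR. The EGF receptor list also gave 0 of 15 by edgeR (3 at an unadjusted p under 0.05; DESeq2 1, voom 5).

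**Figure D4:**
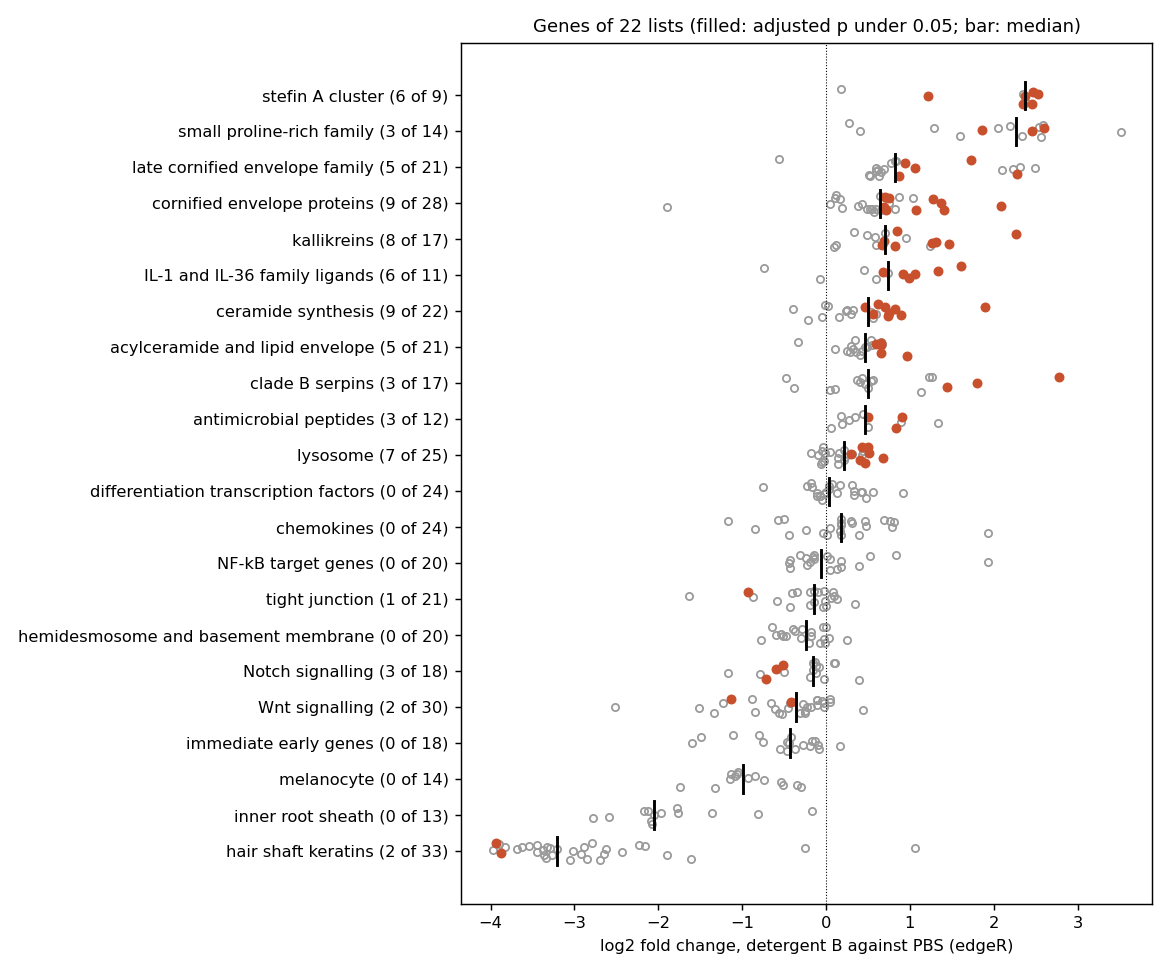
Log2 fold change of detergent B against PBS by edgeR (x axis) for each tested gene of 22 gene lists (y axis, with the number called of the number tested); filled red points passed an adjusted p of 0.05, open grey points did not, and the black bar is the list's median. Medians run from 2.37 for the stefin A genes to -3.20 for hair shaft genes, of which only 2 of 33 are filled.

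Some lysosomal genes and a few metabolic ones rose by small amounts. Of 25 lysosome genes, 7 rose, among them Ctsa, Atp6v1b2, Ctsd, Ctsh and Atp6v1a, with 17 positive and a median of 0.21. Ctsd, the protease cathepsin D, was at 1125 to 1493 CPM (median 1254) in PBS and 1521 to 2030.1 CPM (median 1876) with detergent B, and Ctsa rose 1.6-fold. Without PBS replicate 2, 3 or 5, 0 of the 7 were called, and without PBS replicate 6, 9 were. The glycolytic enzymes Tpi1 and Ldha rose 1.36-fold and 1.40-fold, 2 of 22. Of 26 genes of mitochondrial respiration, Ndufa4 and Ndufb3 rose and 25 were positive, and all 24 proteasome genes were positive with 0 called by edgeR (15 at an unadjusted p under 0.05; DESeq2 1, voom 16). Glrx, which encodes glutaredoxin, rose 2.34-fold, at 52.8 to 107 CPM (median 81.1) in PBS and 149.7 to 217 CPM (median 199.9) with detergent B, and with Gsta1 made 2 of 23 oxidative stress genes; Hmox1 was at 219 ± 41.4 to 339.6 ± 133 CPM and did not pass. The conjugating enzyme Sult2b1, which makes cholesterol sulfate, rose 1.73-fold, the only 1 of 19 xenobiotic metabolism genes called by edgeR (5.26%, near the 3.05% of all genes; DESeq2 1, voom 6). Heat shock, unfolded protein response, glucocorticoid and p53 lists gave 0 calls by edgeR among 16, 21, 15 and 20 genes, with 2, 2, 4 and 5 at an unadjusted p under 0.05; DESeq2 called 0, 1, 2 and 0, and voom 4, 4, 5 and 6. In the retinoid list Fabp5, a fatty acid carrier of keratinocytes, and Rdh12, a retinal reductase, rose 2.22-fold and 1.58-fold, while Stra6, the cell's receptor for retinol uptake, fell by 1.38 on the log2 scale. Stra6 was at 3.53 to 7.21 CPM (median 4.78) in PBS and 1.58 to 2.49 CPM (median 1.91) with detergent B, with no overlap (adjusted p = 0.0114 by edgeR).

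Developmental signalling genes were among those that fell. Of 18 Notch pathway genes, Hes1, Notch1 and Lfng fell, 0 rose and 15 were negative. Hes1, the classic target of Notch, was at 45.7 to 66.5 CPM (median 58.8) in PBS and 33.0 to 51.4 CPM (median 36.4) with detergent B, and Notch1, the receptor, was at 207 to 316 CPM (median 292) in PBS and 95.1 to 237 CPM (median 168) with detergent B. PBS replicate 6, with 207 CPM of Notch1 against 278 to 316 CPM in the other PBS libraries, and detergent B replicates 1 and 3, with 219 and 237 CPM, made the groups overlap. Of 30 Wnt genes, Axin2, a feedback target, and the ligand Wnt6 fell (6.67% against 3.05% of all genes) and 27 were negative. Axin2 was at 50.8 to 62.1 CPM (median 56.3) in PBS and 33.5 to 46.1 CPM (median 44.3) with detergent B, without overlap. Of 27 genes in the hedgehog and BMP list, Bmp4, its target Id3, and Fgf5 fell. Fgf5, which ends hair growth, belongs to neither pathway, was near 1.01 CPM in PBS (median) and was called in 2 of the 12 fits without 1 PBS or detergent B library. Bmp4 was at 24.4 to 32.5 CPM (median 27.9) in PBS and 16.0 to 21.9 CPM (median 17.9) with detergent B, without overlap. Sox9, a stem cell factor of the follicle, fell, from 104 ± 12.5 to 76.1 ± 14.6 CPM, the only one of 18 follicle regulators to pass by edgeR (DESeq2 called 3 and voom 12, all lower). The 3 Notch calls were all lost without PBS replicate 2, 3 or 5 or detergent B replicate 2 or 5, the 3 calls of the hedgehog and BMP list also without detergent B replicate 6, and without PBS replicate 6 each list had 5.

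Levels of hair follicle and melanocyte markers stood beside these changes. Lef1, a Wnt effector of the hair matrix, was at 40.7 to 52.8 CPM in PBS replicates 1 to 5, at 7.32 CPM in PBS replicate 6, at 30.6 and 33.7 CPM in detergent B replicates 1 and 3 and at 4.41 to 10.3 CPM in the other 4, and did not pass (adjusted p = 0.204 by edgeR). Shh was at 0.838 CPM in PBS replicate 6 against 16.0 to 24.1 CPM in the others of its group. All 14 melanocyte genes were negative, 0 passed by edgeR (3 at an unadjusted p under 0.05; DESeq2 0, voom 13), and their summed level was 689.1 to 846.3 CPM in PBS apart from 204.8 CPM in replicate 6, and 227.3 to 614 CPM with detergent B. Among 26 cell cycle genes, all negative, 0 passed by edgeR (0 at an unadjusted p under 0.05; DESeq2 0, voom 11), and Mki67 was at 255 ± 56.3 to 202 ± 52.8 CPM. The part that hair growth has in the genes called was not tested beyond the fit with the hair shaft score. Of the 332 genes that rose, detergent B replicate 3 was the lowest of its group for 170 and replicate 1 for 89, and PBS replicate 6 was the highest of its group for 201.

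**Figure D5:**
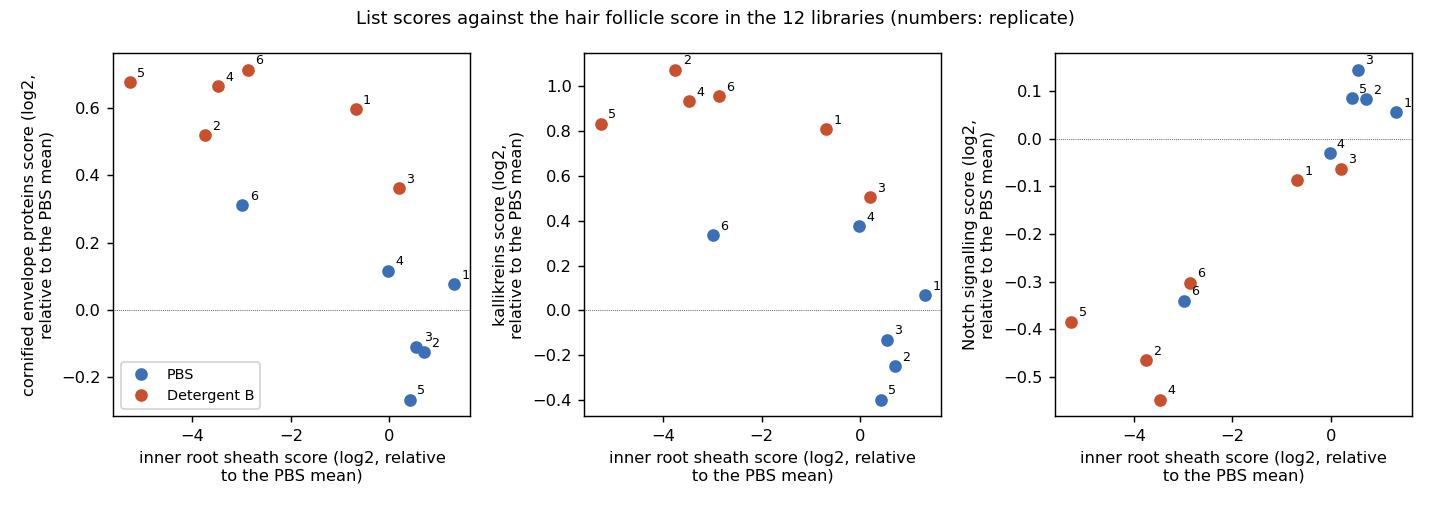
Mean log2 CPM of 3 gene lists relative to the PBS mean (y axes; cornified envelope proteins, kallikreins, Notch signalling) against the same score of 13 inner root sheath genes (x axis) in the PBS (blue) and detergent B (red) libraries, with replicate numbers. Detergent B replicate 3 has an inner root sheath score of 0.20, within the PBS range, and an envelope score of 0.36 against 0.31 or less in all PBS libraries; the Notch scores of PBS replicate 6 and detergent B replicate 6 are -0.34 and -0.30.

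Several of the genes that fell were of moderate level and small change, unlike Stra6 above. Zfp219, a zinc finger transcription factor (chromosome 14, 52006077 to 52020733), was at 53.4 to 67.7 CPM (median 61.5) in PBS and 32 to 44.8 CPM (median 40.8) with detergent B, without overlap, with a log2 fold change of -0.61 ± 0.09 (SE; adjusted p = 0.00978 by edgeR). Doc2g, Zfp574, Cchcr1, Trim2, Tjap1, Myh14, Erf, Pcbp4 and Col16a1 fell by log2 values between 0.43 and 0.83. Trim2, a ubiquitin ligase, was at 89.3 to 110.5 CPM (median 100.1) in PBS and 44.6 to 85.8 CPM (median 49.3) with detergent B. Myh14, a nonmuscle myosin heavy chain, was at 112 to 142 CPM (median 135) in PBS and 61.5 to 105 CPM (median 84.4) with detergent B. Acta2 and Cspg4 of the smooth muscle and pericyte list fell and Rgs5 rose, with log2 fold changes of -0.47 ± 0.11, -0.77 ± 0.20 and 0.58 ± 0.15 (SE), so the list had no common direction. Twf1, an actin-binding protein, rose with little spread, at 96.4 to 136 CPM (median 115) in PBS and 170.2 to 217 CPM (median 212) with detergent B (adjusted p = 0.00978 by edgeR), and Ggh, which removes glutamates from folates, rose 1.92-fold. Zfp772 rose 1.70-fold, with all 6 libraries above PBS.

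Other tissues gave few calls. Sebaceous gland, adipocyte, fibroblast, skeletal muscle, endothelium, nerve and blood lists gave 0 calls by edgeR among 17, 15, 24, 17, 15, 13 and 7 genes, with 10, 3, 4, 4, 3, 3 and 1 at an unadjusted p under 0.05. DESeq2 called 3, 0, 2, 0, 2, 0 and 0, and voom 11, 1, 7, 7, 6, 4 and 1. Scd1, a lipid desaturase of the sebaceous gland, was at 2804 ± 393 to 3882 ± 588 CPM and Col1a1 at 1656 ± 476 to 1008 ± 103 CPM, neither past the threshold. Among 16 circadian clock genes and 7 mitochondrially encoded genes, 0 passed by edgeR (2 and 4 at an unadjusted p under 0.05; DESeq2 1 and 1, voom 4 and 6). The summed skeletal muscle level was 8500 to 18810 CPM with detergent B and 6885 to 13300 CPM in PBS.

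Genes called lower were richer in G and C than genes called higher. The median GC content of the longest annotated transcript was 47.3% for the 332 genes that rose, 58.0% for the 182 that fell and 49.7% for all genes tested, and median transcript lengths were 2571, 3388 and 3142 bases. With counts corrected in 20 bins of GC content and length, 227 genes rose and 55 fell, so 80.5% of the calls were upward against 64.6% without the correction. With that correction 9 envelope, 6 stefin, 7 kallikrein, 7 ceramide and 3 interleukin genes were called higher and 1 Notch gene lower, against 9, 6, 8, 9, 6 and 3 without it. Acylceramide genes called went from 5 to 2, late cornified envelope from 5 to 3, lysosome from 7 to 5 and small proline-rich from 3 to 2. Antimicrobial and desmosome genes each went from 3 to 1. Filaggrin processing kept 4 and the clade B serpins 3.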

How the data were processed

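The deposited values are raw read counts for each gene, made by the authors with STAR and featureCounts on GRCm38.p5, per the submitters' processing notes. How strand and reads with several matches were treated, and which versions and annotation release were used, is not stated in the labels. RNA came from homogenised whole skin, per the labels' protocols. Each file lists 41605 gene IDs, of which 41519 matched GENCODE M21 (GRCm38). Totals were 17312623 to 29599018 counts per library, and a 95% interval typically reached 0.31 to either side on the log2 scale.

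Counts were fitted with edgeR 4.0.16 (R 4.3.3) in all 18 libraries, with the default low-count filter, TMM scaling, a robust quasi-likelihood model of group alone (15 residual degrees of freedom) and Benjamini-Hochberg adjustment over the 16836 genes tested, at 0.05. SE is the log2 fold change divided by the square root of F. CPM uses TMM library sizes. List scores are means of log2 CPM with a prior count of 2, relative to the PBS mean.

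The comparison, the 69 gene lists and the naming rule were chosen with earlier results of these data known. The rule names the 12 smallest p-values in each direction (at least 5 CPM, all 6 libraries on the called side, no predicted genes), up to 4 called members per list, and a fixed set of genes whatever their result (some are not reported here); further called list members are named where a count is given, and Krt6a, Krt16, Sprr2a1 and genes in the loci were chosen after their values were seen. The bounds of the kallikrein stretch were set after the files were read. On simulated counts for detergent B against PBS over 16705 genes, 83% of 2-fold and 48% of 1.5-fold changes were recovered by edgeR, with 6 false calls among 137. Each gene was drawn independently, so the simulation held no variation shared by many genes of a library, such as that of the hair follicle genes. Its false calls therefore do not measure those among the real calls. The alternatives were DESeq2 1.42.0, limma 3.58.1 (voom with quality weights), other scalings and filters, fewer libraries, a replicate block, a hair shaft score covariate, GC and length bins, a test against a 1.5-fold change, a threshold of 0.01 and each library left out. No pair of libraries agreed within sampling noise (lowest chi-square per gene 9.38).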

Additional observations from a re-analysis of the deposited data

Results flagged for a closer look

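Of 256 groups (128 named genes in PBS and in detergent B), 18 held a library whose gap to its nearest neighbour exceeded the 95% limit for a range of 6 values, or 7.03%, where chance flags about 1 in 20. They fell mostly on PBS replicate 6 and detergent B replicates 3 and 4.

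In PBS replicate 6, keratinocyte growth and follicle genes lay below the rest of the group. Lef1 was at 7.32 CPM against 40.7 to 52.8, Shh at 0.838 CPM against 16.0 to 24.1, Tyrp1 at 13.4 CPM against 103.3 to 130.5, Mki67 at 142.7 CPM against 257 to 291, Egfr at 128.6 CPM against 174 to 186, and Notch1 at 206.9 CPM against 278 to 316. Dsg1a, at 1272 CPM against 606 to 798, and Bpifc, at 211.6 CPM against 134 to 158, lay above it. In the other PBS libraries, Fgf5 was high in replicate 1, at 2.46 CPM against 0.869 to 1.16, and the mast cell gene Cpa3 was low in replicate 5, at 20.5 CPM against 28.0 to 33.5.

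Detergent B replicate 3 was low for Zfp772 (35.3 CPM against 43.0 to 45.6), BC100530 (348 CPM against 754 to 1041), Ephx3 (113.3 CPM against 140.2 to 158.6), Sult2b1 (90.2 CPM against 138.3 to 153.8) and Krt14 (3944 CPM against 6767 to 9235). Detergent B replicate 4 was low for Tjap1 (25.7 CPM against 34.4 to 39.7) and high for Bpifc (270.5 CPM against 192 to 217.6) and Ndufb3 (82.8 CPM against 48.1 to 58.0).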

How the results depend on the processing

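The 514 calls (332 higher, 182 lower) became 1391 with DESeq2 (829 and 562), 5106 with voom and quality weights (2585 and 2521), 251 with no filter on low counts (182 and 69, 72.5% upward against 64.6%), 737 on only the 12 libraries compared (505 and 232), 282 with GC content and length bins (227 and 55), and 13 at an adjusted p of 0.01. They became 0 with the hair shaft score as a covariate (1511 genes at an unadjusted p under 0.05) and 0 against a fold of 1.5 (412 genes at an unadjusted p under 0.05). Other size factors, a 5 CPM minimum and a non-robust fit gave 501 to 569. Leaving out 1 library gave 28 to 1888 calls, 24 to 1157 higher and 3 to 731 lower; 27 genes passed each time. The cause of these changes was not tested. Every one of the 514 kept its sign wherever it was tested, but they were chosen in the same libraries, so this is no separate support. Among single genes and list counts, 3297 comparisons with an alternative were the same, 812 lost and 36 gained a call, 253 counts moved by over 1.5 times, and 0 turned. The count of 0 for detergent B against detergent A held in each alternative for which it was computed; it was not computed against a fold of 1.5 or at 0.01. Deviations of same-numbered PBS and detergent B libraries had correlations from -0.293 to 0.382, above 0.1 in 3 of 6 numbers, and 1 number correlated best with its own. Variation shared by many genes of a library also enters these values, so they do not decide whether replicate numbers pair the libraries. A replicate block left 377 calls (252 higher, 125 lower). The 95% interval of a gene reached 0.31 (median over genes) to either side on the log2 scale.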

Other observations

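Of the 514 called genes, 408 were in none of the 69 lists. The families below were put together after the values were seen, so their counts only describe these data, in which 3.05% of all genes were called. Sphingolipid and glycolipid turnover genes were called higher at 9 of 20, among them Cptp, Gm2a, Smpdl3a, Plpp6, A4galt and Sptssa, and Gm2a, the activator protein for ganglioside breakdown, had means of 88.5 ± 17 CPM in PBS and 143.7 ± 22.1 CPM with detergent B (SD, n = 6 in each). Among 7 nucleases of dying or shedding cells, Dnase1l2, Trex2 and Endou rose 1.97-fold, 2.40-fold and 2.28-fold. Of 22 subunits of the vacuolar proton pump, which acidifies lysosomes, Atp6v1b2, Atp6v1e1, Atp6ap2 and Atp6v1a rose. Lpo, which encodes lactoperoxidase, rose 5.50-fold, from 8.06 ± 3.25 to 44.6 ± 17.4 CPM, and Ggct, an enzyme of glutathione breakdown, rose 2.20-fold. The carboxypeptidase Cpa4 rose 1.87-fold, from 219 ± 37.6 to 411 ± 28.1 CPM, and the insulin-degrading enzyme Ide rose 1.73-fold.

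Some nuclear regulators fell. Of 20 histone and chromatin regulators, 7 fell and all 20 had a negative log2 fold change, and Kmt2d, a histone methyltransferase, went from 205 ± 17.8 to 144 ± 32.7 CPM. Of 352 genes named Zfp and a number, a group made by name alone, 9 fell and 1, Zfp772, rose. That share, 2.84% called, is near the 3.05% of all genes. Hoxd3, Hoxd4 and Hoxb2 fell among 29 Hox genes, and Ltbp3 and Ltbp4, which hold latent TGF-beta in the matrix, fell among 4. The planar polarity receptor Ptk7, the Wnt adaptor Dvl2 and the growth factor receptor Igf1r fell by 0.55, 0.57 and 0.47 on the log2 scale. Cryaa, a lens crystallin also found outside the lens, was at 2.32 ± 0.755 CPM in PBS and 0.489 ± 0.162 CPM with detergent B.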
